A study of Malus domestica with 99 samples.

Results

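Starch that an apple has stored by harvest is turned into sugar as the fruit ripens. The granule-bound starch synthases GBSSIa and GBSSIb and the amylase AMY10 are the 3 genes described here. They were chosen by name, as the transcript entries that a RefSeq apple gene table pairs with these symbols or synonyms, and they make up 3 of 19315 genes matched in that table. The 3 genes had 6 of the 55627 transcript entries in the data. For each gene the entry with the highest mean over all columns stood for it: XM_008375917 for GBSSIa, XM_008378000 for GBSSIb and NM_001294091 for AMY10. All 3 passed the filter on low values.

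A granule-bound starch synthase sits on the starch granule inside the plastid and builds amylose, the mostly unbranched part of starch, by adding glucose units from ADP-glucose. Plants often carry more than one such gene, with one form more active in storage tissue and another elsewhere. Alpha-amylases, the family in which apple AMY genes are named, cut starch chains internally, and beta-amylases release maltose from the chain ends. Apple fruit fills its plastids with starch as it grows and breaks that starch down around harvest, a process commonly followed by staining cut fruit with iodine.

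RNA was sequenced from the cortex, the flesh of the fruit, in the 3 cultivars Golden Delicious, Granny Smith and Fuji. In each cultivar there were 5 groups of fruit treated with 1-MCP, at day 1, 7, 14 and 21 and at 2 months after harvest, 5 groups of control fruit at the same times, and 1 group at harvest, which makes 33 groups of 3 libraries. 1-MCP is 1-methylcyclopropene, a gas that occupies ethylene receptors and so blocks the response to this ripening hormone; it was given overnight to picked fruit in a closed container. How the control fruit were handled and how the fruit were stored are not given in the sources used here.

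The deposited values are log2 levels, 1 mean per group, so the spread between replicate fruit could not be computed, and every level below is the mean of a group on the log2 scale. A level compares groups for one gene, and levels of different genes are not compared with one another. Whether Fuji levels share a scale with those of the other cultivars was not tested. The tests weigh a difference against its spread between the 3 cultivars (2 for GBSSIb) or, within a cultivar, between days 7, 14 and 21. In limma that spread is drawn toward the spread of other entries. Intervals and p therefore do not rest on the spread of the gene alone. A gene is called where the Benjamini-Hochberg adjusted p of limma over all entries tested is under 0.05. GBSSIb was examined in Golden Delicious and Granny Smith alone, since its entries were not among the Fuji values used here. In total RNA of a whole tissue, fewer cells of a type and less RNA per cell cannot be told apart. Marker genes were set beside the tissue label. They cannot decide it, since peel without red pigment would also be low in the peel pigment genes. The ripening markers follow ripening as well as tissue. ACO1, an ethylene-forming enzyme of ripe apple, ran between log2 5.04 and 14.59 in 1-MCP columns (median 9.05) and between 5.63 and 16.12 in control columns (median 14.55). The peel pigment genes UFGT and ANS lay at or next to the floor of the values (log2 -1 to -0.67) in both. The peel regulator MYB1 had at most log2 3.03 in 1-MCP and 2.99 in control columns. No entry was found under the symbol MYB10, which need not mean that such a gene is absent. The phloem genes pp2-1 and pp2-3 ran between log2 5.08 and 8.70 in 1-MCP columns and between 5.23 and 8.95 in control columns. Summed on the linear scale over the Golden Delicious and Granny Smith columns, all 3 ripening markers (ACO1, PG1 and EXP1) ranged from log2 5.63 to 14.60 in 1-MCP and 8.68 to 16.14 in control fruit. The 3 peel markers found, of 4 symbols listed, ranged from log2 1.72 to 3.21 in 1-MCP and 0.59 to 3.16 in control fruit. Both phloem markers ranged from log2 6.26 to 9.36 in 1-MCP and 6.55 to 9.75 in control fruit. The part of all these markers in the results on the starch genes was not tested.

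All 3 genes were higher in 1-MCP fruit than in control fruit at every time and in every cultivar measured. GBSSIa was above control in 15 of 15 pairs of columns, by log2 0.30 to 2.27, AMY10 in 15 of 15, by log2 0.12 to 2.29, and GBSSIb in 10 of 10, by log2 0.39 to 2.05. Among the 20999 entries with Fuji values that passed the filter, 7.59% were above control in all 15 pairs, and among the 42396 that passed it in the other cultivars 10.3% were above in all 10. The genes took different courses after harvest. By 2 months GBSSIa had fallen against harvest in both kinds of fruit, GBSSIb had risen in 1-MCP fruit, and AMY10 had fallen in control fruit, with 126% of its harvest level in 1-MCP fruit.

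**Figure D1:**
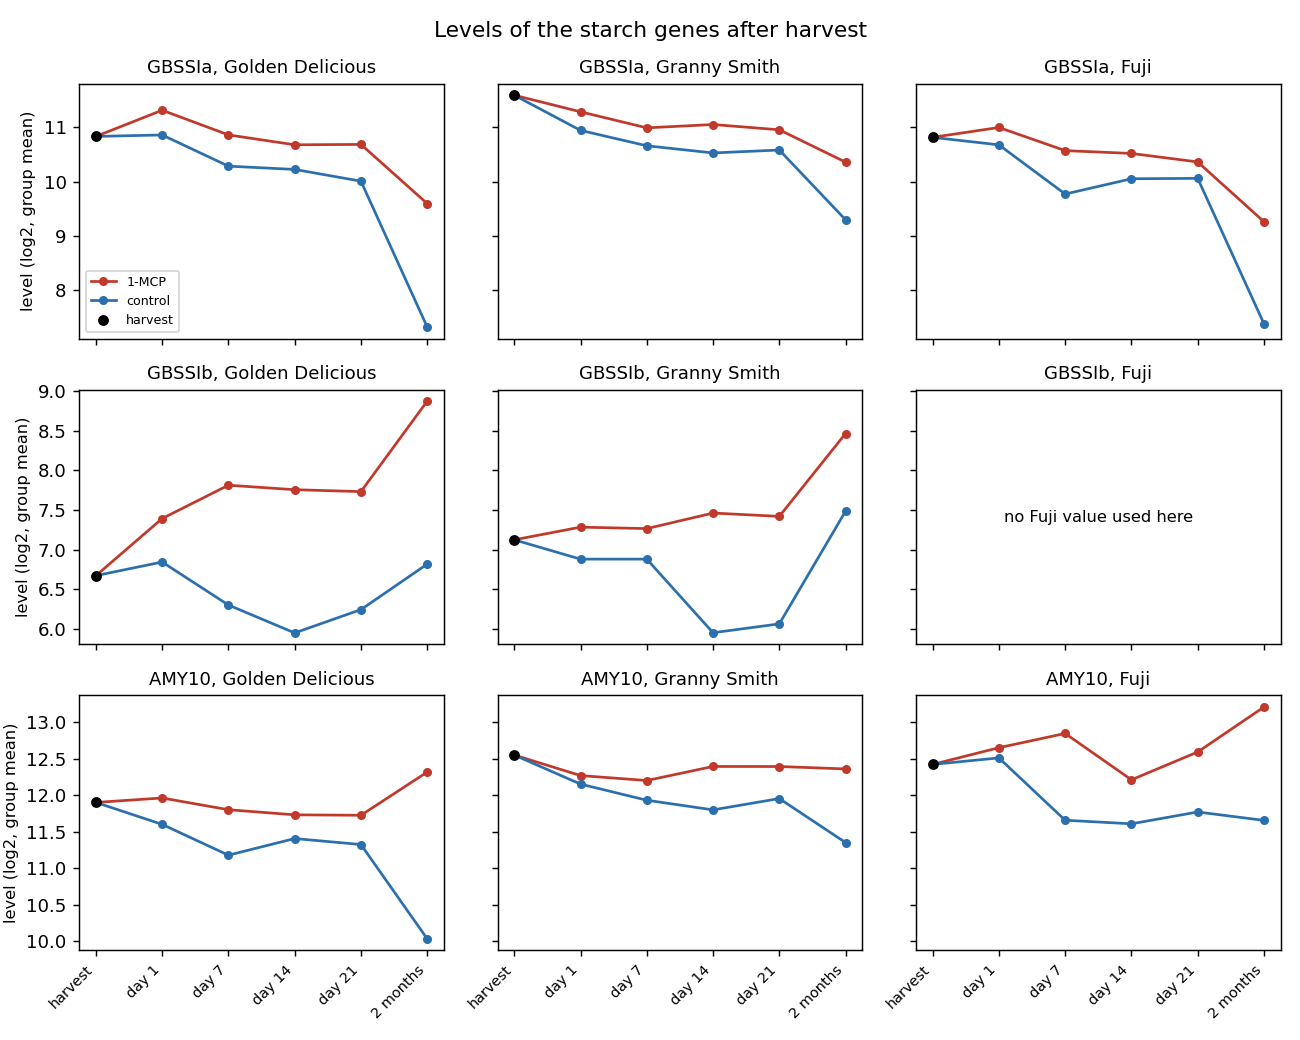
Level of each gene (log2, mean of a group of libraries) against time after harvest, with 1 row of panels per gene and 1 column per cultivar; red is 1-MCP fruit, blue is control fruit and the black point is harvest. The red line lies above the blue line at each of the 15 pairs of GBSSIa and AMY10 and at each of the 10 pairs of GBSSIb.

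From day 14 on, GBSSIa lay below its harvest level in every cultivar and in both kinds of fruit. At day 1 it was above harvest in 1-MCP fruit of Golden Delicious and Fuji. In Golden Delicious its log2 level was 10.83 at harvest, then 11.32, 10.86, 10.68, 10.69 and 9.60 in 1-MCP fruit at day 1, 7, 14 and 21 and 2 months, against 10.86, 10.29, 10.23, 10.01 and 7.33 in control fruit. In Granny Smith it was 11.59 at harvest, then 11.29, 10.99, 11.05, 10.96 and 10.36 in 1-MCP fruit, against 10.94, 10.66, 10.53, 10.58 and 9.30 in control fruit. Fuji started at 10.82, followed by 11.00, 10.57, 10.52, 10.36 and 9.26 in 1-MCP fruit and 10.68, 9.77, 10.05, 10.06 and 7.39 in control fruit. At day 1 all 1-MCP columns lay above all control columns. At day 7, 14 and 21 Granny Smith control fruit reached the Fuji 1-MCP level. At 2 months Granny Smith control fruit, at 9.30, still reached the 9.26 of Fuji 1-MCP fruit. Golden Delicious and Fuji control fruit were then the lowest columns of this gene. A shared scale of Fuji and Granny Smith levels was not tested, so margins this small may not hold.

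Over days 7, 14 and 21 GBSSIa was higher in 1-MCP than in control fruit by log2 0.50, a fold of 1.41 (95% interval 0.29 to 0.71, limma adjusted p = 0.0141, n = 3 cultivars). By cultivar it was 0.57 (Golden Delicious), 0.41 (Granny Smith) and 0.52, the last in Fuji. The Fuji control column at day 14 is a mean of 2 libraries rather than 3. AMY10 was called higher in the same test, in which 18.5% of the 20999 entries tested were called higher. The log2 difference of GBSSIa lay at percentile 78.1 of all entries, whose median was 0.03. Its call was lost without Golden Delicious (adjusted p = 0.0709) or without Fuji (0.0738) and was kept without Granny Smith (0.0492).

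Day by day, the difference of GBSSIa was already present at day 1, when it was log2 0.37 (interval 0.24 to 0.50, limma adjusted p = 0.0093), a time at which 4.48% of entries were called higher. It was 0.57 at day 7 (adjusted p = 0.015, with 16.8% of entries called higher) and 0.48 at day 14 (adjusted p = 0.0333, with 13.3% called higher). At day 21 it was 0.45 (interval 0.14 to 0.76) and missed the threshold with an adjusted p of 0.0629. The call at day 1 was lost without Golden Delicious (adjusted p = 0.0678) or Fuji (0.0518), that at day 7 without either of the same cultivars (0.0803 and 0.0787), and that at day 14 without any 1 of the 3 (0.0959 to 0.138). With no filter on low values the calls at day 1 (0.136) and day 7 (0.114) were lost, and with a single prior variance for all entries those of day 1 (0.151), day 7 (0.0721) and day 14 (0.088).

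At 2 months GBSSIa was higher with 1-MCP by log2 1.74 or 3.33-fold (interval 1.09 to 2.38, limma adjusted p = 0.0259). Golden Delicious differed by 2.27, Granny Smith by 1.06 and Fuji by 1.88. GBSSIa and AMY10 were both called higher at this time, when 4.37% of entries were. The difference of GBSSIa lay at percentile 97.3 of all entries. The call was lost without Granny Smith (adjusted p = 0.0644), without Fuji (0.139), with no filter (0.153) and with a single prior variance (0.0755), while the difference stayed between 1.47 and 2.07 whichever cultivar was left out. The Fuji 1-MCP column at 2 months is a mean of 2 libraries rather than 3.

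Against harvest, GBSSIa at 2 months fell by 1.34 on the log2 scale in 1-MCP fruit (interval -1.67 to -1.01, limma adjusted p = 0.00575) and fell by 3.08 in control fruit (interval -3.77 to -2.38, adjusted p = 0.00821). As a geometric mean over the 3 cultivars, 39.5% of the harvest level was left in 1-MCP fruit and 11.9% in control fruit. The change was -1.24, -1.23 and -1.55 in 1-MCP fruit of Golden Delicious, Granny Smith and Fuji, and -3.51, -2.29 and -3.43 in their control fruit. Calls toward a lower level at 2 months were made for 10.3% of entries in 1-MCP fruit and 6.84% in control fruit, and the control change of GBSSIa lay at percentile 1 of all entries. Without Fuji the control call was lost (adjusted p = 0.0693), and both were lost with no filter on low values (0.0623 in 1-MCP fruit and 0.103 in control fruit).

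At day 21 the level of GBSSIa stood at 75.2% of harvest in 1-MCP fruit, a log2 difference of -0.41 (interval -0.74 to -0.09, limma adjusted p = 0.071, where 11.6% of entries were called lower), and at 55.0% in control fruit, where it had fallen by 0.86 (adjusted p = 0.0342, a test in which 5.59% of entries were called lower). Removing any 1 of the cultivars ended the control call at day 21 (adjusted p = 0.0694 to 0.156), as did no filter (0.0887) and a single prior variance (0.0771). In going on to 2 months, the log2 level in 1-MCP fruit changed by -1.09 (Golden Delicious), -0.60 (Granny Smith) and -1.10 (Fuji), and in control fruit by -2.68, -1.28 and -2.67 in the same order. Each of the 6 courses went down over this step, and Granny Smith changed least in either kind of fruit. These last steps are given as values, without a test.

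**Figure D2:**
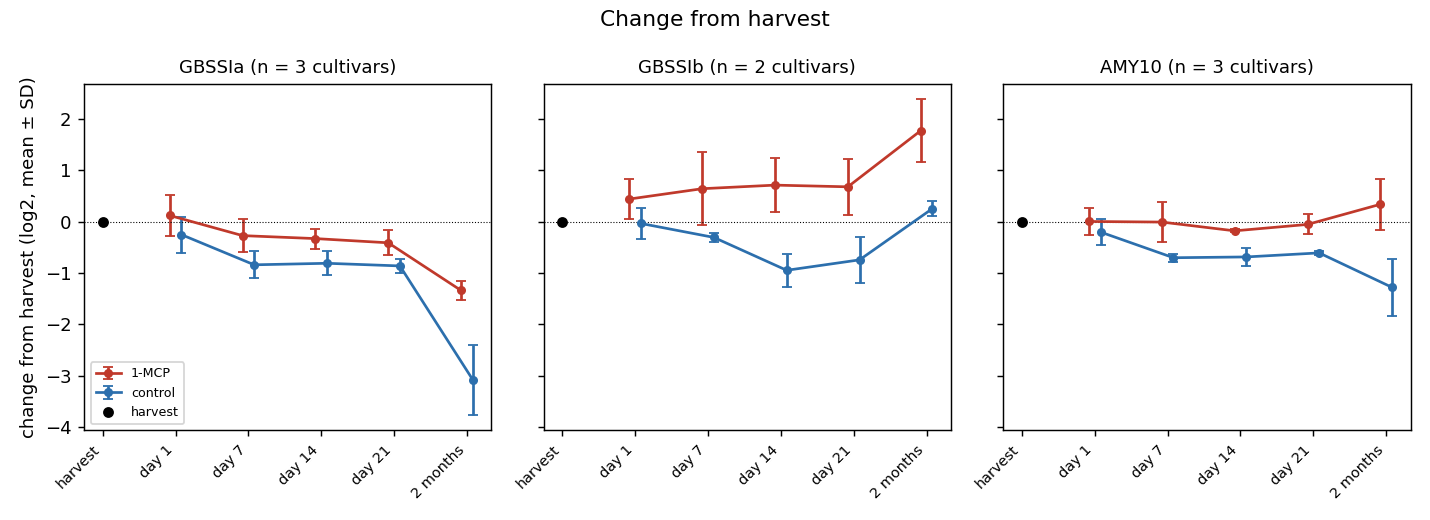
Change of each gene from its harvest level (log2, mean over cultivars, bars are 1 SD between cultivars) at day 1, 7, 14 and 21 and 2 months, in 1-MCP fruit (red) and control fruit (blue). GBSSIa ended at -1.34 in 1-MCP and -3.08 in control fruit, GBSSIb at 1.77 and 0.25, and AMY10 at 0.34 and -1.28.

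GBSSIb, the other granule-bound starch synthase gene, moved the opposite way over time in treated fruit. In Golden Delicious its log2 level was 6.67 at harvest, then 7.39, 7.81, 7.76, 7.73 and 8.87 in 1-MCP fruit at day 1, 7, 14 and 21 and 2 months, against 6.85, 6.30, 5.95, 6.25 and 6.82 in control fruit. In Granny Smith it was 7.12 at harvest, then 7.28, 7.27, 7.46, 7.42 and 8.46 in 1-MCP fruit, against 6.88, 6.88, 5.95, 6.07 and 7.49 in control fruit. From day 1 on, both 1-MCP values lay above both control values at each time, with the lowest 1-MCP level at 7.27. Only the 2-month control value of Granny Smith, 7.49, lay above any 1-MCP value of day 1 to 21. In both cultivars the control course of this entry had its minimum at day 14; in the other GBSSIb entry the Granny Smith control level, 5.56 at day 14, was lowest at day 21.

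Across days 7, 14 and 21 GBSSIb was higher in 1-MCP than in control fruit in both cultivars tested. The difference was log2 1.60 or 3.03-fold within Golden Delicious (interval 1.36 to 1.85, limma adjusted p = 0.000439) and 1.08 or 2.12-fold within Granny Smith (interval 0.51 to 1.66, adjusted p = 0.0159). Of 42396 entries, 14.6% were called higher in both cultivars. Within Granny Smith the difference was 0.39 at day 7 and then 1.51 at day 14 and 1.36 at day 21, and its call was lost without day 14 (adjusted p = 0.107), without day 21 (0.0833), with no filter (0.153) and with a single prior variance (0.0625). With the 2 cultivars as the unit, the difference was 1.34 (interval 0.84 to 1.84, adjusted p = 0.033), a test that called 7.59% of entries higher; this call was lost with no filter (0.171) and with a single prior variance (0.0903).

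At single times, fitted over 2 cultivars, GBSSIb was called higher at day 14, by log2 1.66 (interval 1.20 to 2.12, limma adjusted p = 0.0223, with 5.13% of entries called higher), and at day 21, by 1.42 (interval 0.97 to 1.88, adjusted p = 0.0476, with 1.23% called higher). Its difference was 0.48 at day 1 (adjusted p = 0.0677, with 2.09% called higher) and 0.95 at day 7 (adjusted p = 0.124, with 8.32% called higher), where Golden Delicious showed 1.51 and Granny Smith 0.39. At 2 months Golden Delicious had 2.05 and Granny Smith 0.98, with a mean of 1.52 (interval 0.64 to 2.39) and an adjusted p of 0.133, a test that called 0.396% of entries higher. The calls at day 14 and day 21 were lost with no filter (0.185 and 0.205) and with a single prior variance (0.108 and 0.176), and the day 21 call also with 4 added to each value before the logarithm (0.0528).

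From harvest to 2 months GBSSIb in 1-MCP fruit rose by log2 1.77 (interval 1.09 to 2.45, limma adjusted p = 0.0354), to 341% of the harvest level as a geometric mean of the 2 cultivars, and 2.2% of entries were called higher in that test. In control fruit the difference from harvest at 2 months was 0.25 (interval -0.36 to 0.87, adjusted p = 0.591), or 119% of harvest. In between, control fruit had stood at 51.9% of harvest at day 14, and 1-MCP fruit at 164%. The day 21 differences from harvest, 0.68 in 1-MCP fruit (adjusted p = 0.143) and -0.74 in control fruit (adjusted p = 0.242), did not pass. The 2-month rise was no longer called with no filter (0.285) or a single prior variance (0.151). Between day 21 and 2 months the level went up in all 4 courses, by 1.14 (1-MCP) and 0.57 (control) for Golden Delicious, and by 1.04 (1-MCP) and 1.42 (control) for Granny Smith.

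AMY10 is the amylase gene of the set. In Golden Delicious its log2 level was 11.90 at harvest, then 11.96, 11.80, 11.73, 11.73 and 12.32 in 1-MCP fruit at day 1, 7, 14 and 21 and 2 months, against 11.60, 11.18, 11.41, 11.33 and 10.03 in control fruit. In Granny Smith it was 12.55 at harvest, then 12.27, 12.20, 12.40, 12.39 and 12.36 in 1-MCP fruit, against 12.15, 11.93, 11.80, 11.96 and 11.35 in control fruit. Fuji had 12.42 at harvest, then 12.65, 12.85, 12.21, 12.59 and 13.21 in 1-MCP fruit and 12.51, 11.66, 11.61, 11.77 and 11.66 in control fruit. The highest column was Fuji 1-MCP fruit at 2 months and the lowest was Golden Delicious control fruit at 2 months. Fuji 1-MCP fruit at 2 months and Fuji control fruit at day 14 are means of 2 libraries rather than 3. At 2 months all 1-MCP columns lay above all control columns, whereas from day 1 to day 21 the Golden Delicious 1-MCP level lay below at least 1 control level of another cultivar at day 1, 7, 14 and 21.

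Over days 7, 14 and 21 AMY10 was higher in 1-MCP than in control fruit by log2 0.59, a fold of 1.50 (interval 0.26 to 0.91, limma adjusted p = 0.0262). Golden Delicious differed by 0.45, Granny Smith by 0.43 and Fuji by 0.87, and the mean lay at percentile 81.4 of all entries. This call was lost whichever cultivar was left out (adjusted p = 0.0728 to 0.0783), with no filter (0.0519) and with a single prior variance (0.0539). At day 1 the difference was 0.21 (adjusted p = 0.101), and it was called at day 7 with 0.69 (0.041), at day 14 with 0.51 (0.0438) and at day 21 with 0.55 (0.0498, where 9.23% of entries were called higher). Without Golden Delicious or Fuji all 3 of these single-day calls were lost (adjusted p = 0.105 to 0.2), and without Granny Smith those of day 14 (0.172) and day 21 (0.122). The same calls were lost with no filter (0.0978 to 0.201) and with a single prior variance (0.0958 to 0.116).

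At 2 months AMY10 was higher in 1-MCP fruit by log2 1.62 or 3.06-fold (interval 0.94 to 2.29, limma adjusted p = 0.0329), at percentile 96.8 of all entries. Golden Delicious showed 2.29, Granny Smith 1.01 and Fuji 1.55. Leaving out Granny Smith (adjusted p = 0.0861) or Fuji (0.154) ended the call, as did no filter (0.165) and a single prior variance (0.0852). Against harvest, 1-MCP fruit at 2 months differed by 0.34 (interval -0.18 to 0.85, adjusted p = 0.285), or 126% of the harvest level; the difference was 0.11 without Fuji and 0.60 without Granny Smith. In control fruit AMY10 fell by 1.28 (interval -1.89 to -0.67, adjusted p = 0.0333), to 41.2%, and that call was lost without any 1 cultivar (0.0816 to 0.108), with no filter (0.154) and with a single prior variance (0.0853).

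At day 21 the AMY10 level was 96.3% of harvest in 1-MCP fruit (log2 difference -0.05, interval -0.37 to 0.26, limma adjusted p = 0.782) and 65.6% in control fruit (-0.61, interval -0.97 to -0.25, adjusted p = 0.0631). Between day 21 and 2 months the log2 level changed in 1-MCP fruit by 0.59 (Golden Delicious), -0.03 (Granny Smith) and 0.62 (Fuji), and in control fruit by -1.29, -0.60 and -0.12 in the same order. Control fruit thus went down in each cultivar, by amounts that differed widely, with the least in Fuji.

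**Figure D3:**
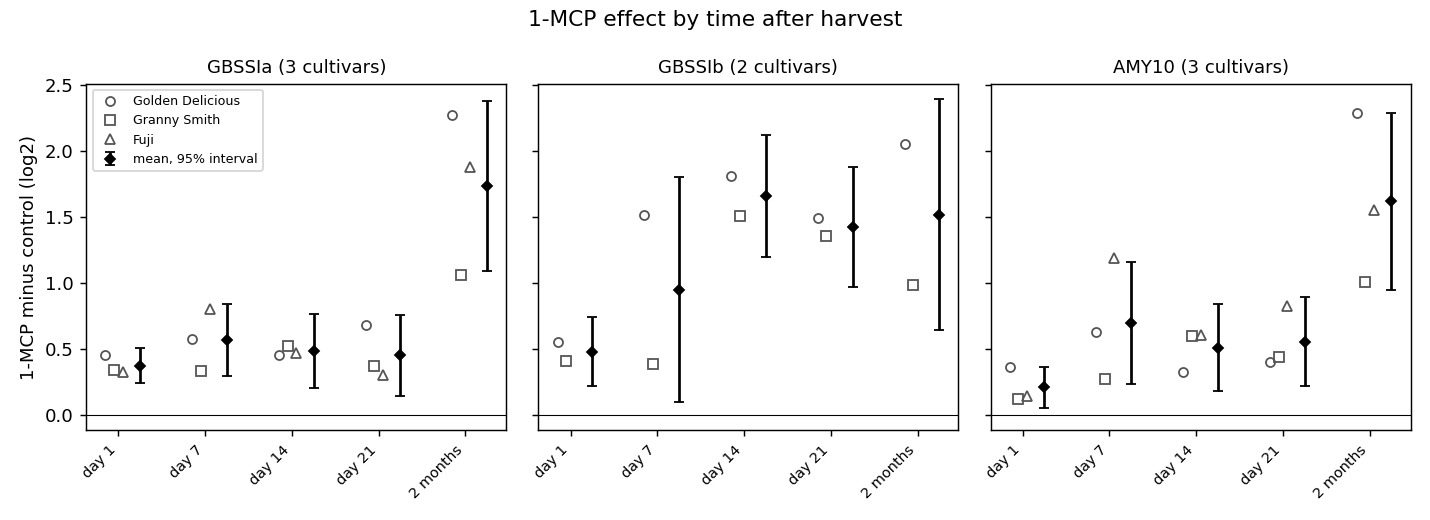
Difference between 1-MCP and control (log2) at each time, with open symbols for the cultivars and a black diamond for their mean with its 95% interval from limma; GBSSIb has 2 cultivars and the other genes 3. All open symbols lie above 0, and at 2 months the means are 1.74 for GBSSIa, 1.52 for GBSSIb and 1.62 for AMY10.

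Whether the effect of 1-MCP at 2 months differed from that of days 7, 14 and 21 was tested as a difference of differences. It was log2 1.24 for GBSSIa (interval 0.66 to 1.81, limma adjusted p = 0.107), 1.03 for AMY10 (interval 0.32 to 1.74, adjusted p = 0.181) and 0.17 for GBSSIb (interval -0.50 to 0.85, adjusted p = 0.839). Only 1 of 20999 entries (0.00476%) was called in this test, so it called almost nothing at all. In GBSSIa the difference was above 0 in each cultivar (Golden Delicious 1.70, Granny Smith 0.65 and Fuji 1.35), and AMY10 had 1.84, 0.57 and 0.68. For GBSSIb, Golden Delicious had 0.45 and Granny Smith -0.10.

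The course over all 6 times was also tested as a whole, with cultivar in the fit. GBSSIa changed with time in 1-MCP fruit (F = 26.6, limma adjusted p = 2.31e-05) and in control fruit (F = 31.0, adjusted p = 5.63e-05). AMY10 was called in control fruit (F = 9.27, adjusted p = 0.00357) and missed the threshold in 1-MCP fruit (F = 2.21, adjusted p = 0.156). Leaving out Granny Smith turned both: the 1-MCP course of AMY10 was then called (F = 6.50, adjusted p = 0.0222) and the control course was not (F = 5.04, adjusted p = 0.0666). GBSSIb, over 12 columns, was called in 1-MCP fruit (F = 15.5, adjusted p = 0.00462) and in control fruit (F = 7.73, adjusted p = 0.0458), the last not with no filter (0.0687) or a single prior variance (0.0845). Over 18 columns this test called 53.9% of entries in 1-MCP fruit and 41.7% in control fruit, and over 12 columns 30% in 1-MCP fruit and 14.3% in control fruit.

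The order of the cultivars differed between the genes. GBSSIa was highest in Granny Smith in 10 of 11 conditions and lowest in Fuji in 9 of 11, with means over the 11 conditions of log2 10.24 for Golden Delicious, 10.75 for Granny Smith and 10.04 for Fuji. AMY10 was lowest in Golden Delicious in 11 of 11 conditions (mean log2 11.54) and highest in Fuji in 6 (12.29) and in Granny Smith in 5 (12.12). GBSSIb was higher in Golden Delicious in 6 conditions (mean 7.13), while Granny Smith was higher in 5 (mean 7.12). Without the spread between replicate fruit, no test of these orders was made. Fuji values came from a table of fewer entries with a slightly higher median, and column medians ran from log2 4.57 to 4.74 over all cultivars. Column maxima were 18.06 in Golden Delicious and Granny Smith and 16.85 to 17.20 in Fuji. Whether the places of Fuji in these orders reflect the scale of its table was not tested.

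Within each cultivar, where days 7, 14 and 21 are the unit, GBSSIa was called higher with 1-MCP in Golden Delicious (limma adjusted p = 0.00326), Granny Smith (0.017) and Fuji (0.00611), and so was AMY10 (0.0101, 0.0207 and 0.00103). The shares of all entries called higher there were 23%, 21.5% and 23.7%. Unlike those of GBSSIb within a cultivar, these calls were not recomputed under the alternative settings. These tests weigh the difference against its spread between days of 1 cultivar, and whether treated and control fruit differed in another way cannot be told apart from the treatment.

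The 1-MCP effect on AMY10 over those days was smaller in Golden Delicious than in Fuji, by log2 -0.42 (interval -0.66 to -0.18, limma adjusted p = 0.0471), and smaller on each of the 3 days. That test called 3.56% of entries lower, and the call was lost without any 1 day (adjusted p = 0.143 to 0.166), under a stricter filter (0.0505), with no filter (0.179) and with a single prior variance (0.22). Granny Smith minus Fuji was -0.44 for AMY10 (interval -0.84 to -0.03, adjusted p = 0.187), and Golden Delicious minus Granny Smith was 0.02 (adjusted p = 0.967). For GBSSIb, Golden Delicious minus Granny Smith was 0.52 (interval 0.01 to 1.02, adjusted p = 0.223). The 3 differences of GBSSIa between cultivars were 0.16, 0.05 and -0.11, with adjusted p from 0.492 to 0.871 and intervals that reach from -0.44 to 0.45.

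**Figure D4:**
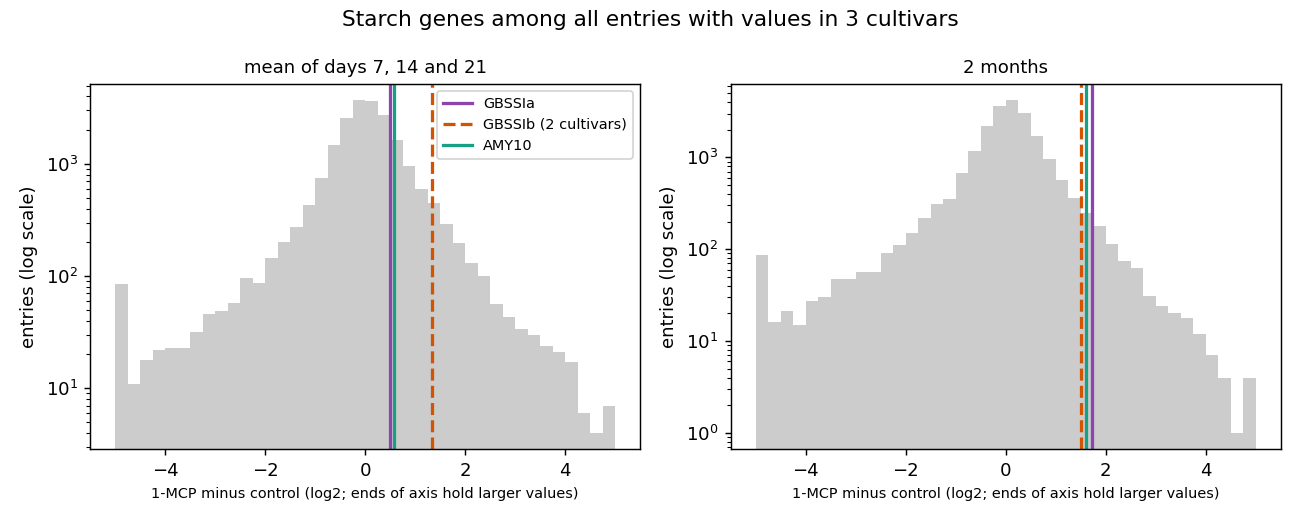
Number of entries (log scale) by their mean difference between 1-MCP and control (log2, bins of 0.25, with the outermost bins holding all larger differences), over the 20999 entries with values in 3 cultivars; lines mark GBSSIa, AMY10 and, from its 2 cultivars, GBSSIb. Over days 7, 14 and 21 the lines stand at 0.50, 0.59 and 1.34, and at 2 months at 1.74, 1.62 and 1.52.

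GBSSIa and GBSSIb had further entries, which are transcript records of the same gene and share sequence, so they are no independent evidence. The other GBSSIa entries followed the one used with Pearson r = 0.998 over 33 columns and 0.999 over 22 columns, and the other GBSSIb entry with 0.985 over 22 columns, each cultivar's mean subtracted. With the other GBSSIa entry that has Fuji values the difference over days 7, 14 and 21 was 0.48 (limma adjusted p = 0.0193), and at 2 months 1.76 (0.0238). With the other GBSSIb entry it was 1.69 within Golden Delicious (adjusted p = 0.000508) and 1.16 within Granny Smith (0.005). Reads from any near-identical stretches of GBSSIa and GBSSIb could have been split or shared in counting, which could not be checked without their sequences. The libraries did not keep the strand, so reads of overlapping or antisense genes cannot be told apart from those of GBSSIa and GBSSIb.

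Among the 3 genes, patterns over columns were compared as Pearson r after each cultivar's mean was subtracted; the points share libraries, and no p is given. GBSSIa and AMY10 had r = 0.63 over 33 columns, GBSSIb and AMY10 0.48 over 22 columns, and GBSSIa and GBSSIb 0.03 over 22 columns. Of 277 other named genes, those most like GBSSIa were MdPIP1b, named as an aquaporin (0.93 over 33 columns), RIN4-1 (0.90 over 33) and AUX/IAA7.1, named as an auxin-response repressor (0.84 over 22). GBSSIb was most like GABA-T2, named as a GABA transaminase (0.91), DAM1, named after dormancy-associated MADS-box genes (0.86), and TCP1 (0.85), and AMY10 was most like TCP7 (0.88), ARF3 (0.86) and HD21 (0.84), over 22 columns each.

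Other starch genes could be looked for only by symbol, since the gene table carries no descriptions. Beside the 3 genes, the symbol prefixes of starch enzymes found SS and MdSSK1, and the maltose exporter symbol MEX was added. The prefix alone brought in MdSSK1, whose name is not that of a starch enzyme, and what SS stands for is not given in the table. Over days 7, 14 and 21, of the 4 listed genes with Fuji values 2 were called higher in the fit over 3 cultivars (GBSSIa and AMY10, where 18.5% of entries were) and SS and MEX were not called. Of the 2 without Fuji values, GBSSIb was called higher in both cultivars (where 14.6% of entries were) and MdSSK1 was not called. SS differed by log2 -0.37 (interval -0.72 to -0.02, limma adjusted p = 0.0948) and MEX by -0.22 (interval -0.50 to 0.06, adjusted p = 0.171). At 2 months they differed by 0.33 (adjusted p = 0.186) and 0.34 (0.162). MdSSK1, without Fuji values, differed by -0.96 within Golden Delicious (adjusted p = 0.056) and by -0.82 within Granny Smith (0.118).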

How the data were processed

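RNA of fruit cortex from 99 samples was made into non-directional libraries, per the labels' protocols. The submitters' processing notes name the aligner STAR (version 2.5.1a) and the counter HTSeq; the genome build is not given in the sources used here. The authors deposited log2 values, 1 column per group and 1 table per cultivar, under the name FPKM. Low values (log2 under 2.5) of these deposited columns were found to be means of log2 whole numbers (relative tolerance 0.0003, with 0 entered as 0.5), over 3 libraries in 31 columns and over 2 libraries in 2, which are Fuji 1-MCP fruit at 2 months and Fuji control fruit at day 14. That makes 97 libraries in the means. Column medians ran from log2 4.57 to 4.60 in Golden Delicious and Granny Smith and from 4.70 to 4.74 in Fuji. Column maxima were 18.06 in Golden Delicious and Granny Smith and 16.85 to 17.20 in Fuji. Depth per sample is unknown, so no counting interval is given.

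Entries were matched to the RefSeq gene table of assembly GDT2T_hap1 for names only (22330 of 55627, 40.1%), and no sequence of the 3 genes is shown. Fuji had values for 27230 entries (49%). Entries were kept that reached a log2 value of 2 in 3 columns or more, 20999 with Fuji values and 42396 in all. Differences of group means were tested two-sided with limma 3.58.1 in R 4.3.3 (eBayes with trend and robust options) over 3 cultivars, 2 cultivars or 3 days, and adjusted over all entries; intervals are limma's 95% intervals. The named genes were the 3 members, list genes of their families, list genes called with a log2 difference of at least 1 (up to 15 in each direction), and, per member, the 3 symbol-named entries with the highest correlation. Seed and leaf marker lists needed descriptions and were not used. The members, lists and tests were chosen with earlier results of these data known. Alternatives were no filter, a stricter filter (log2 of at least 4), 4 added before the logarithm, centred differences, a single prior variance, each cultivar or day left out and the other entry. A single prior variance here means limma with its trend and robust options both dropped, so their parts in a lost call cannot be told apart. The fits were tested on simulated data.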

Additional observations from a re-analysis of the deposited data

Results flagged for a closer look

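The 1-MCP effect on AMY10 over days 7, 14 and 21 is given a closer look because a day-by-day test of the difference between cultivars passed: Golden Delicious minus Fuji was log2 -0.42 (interval -0.66 to -0.18, limma adjusted p = 0.0471). The effect was 0.62, 0.33 and 0.40 in Golden Delicious and 1.19, 0.60 and 0.82 in Fuji at day 7, 14 and 21. Leaving out any 1 of the 3 days ended the call.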

How the results depend on the processing

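Of 413 values recomputed under alternatives, 330 kept their direction and side of the threshold, 78 kept the direction and were no longer called, 1 became called and 4 turned sign. The 330 include values never called that stayed uncalled, so that count does not measure how firm the calls are. Calls lost were 19 with no filter and 18 with a single prior variance. Leaving out Golden Delicious, Granny Smith or Fuji lost 10, 9 and 13 calls. No value of a comparison called with the settings of the report turned sign. No paired analysis was possible because each deposited column is a group mean, so replicate libraries could not be matched by number (differences were taken within cultivars and days), and for the same reason leaving out replicates was not run. Depth is unknown, so what it limits cannot be stated. The causes of the lost calls were not tested.

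With no filter (19 lost) the difference between 1-MCP and control was no longer called for GBSSIa at day 1 (0.37), day 7 (0.57) and 2 months (1.74), and for AMY10 over days 7, 14 and 21 (0.59), at day 7 (0.69), day 14 (0.51), day 21 (0.55) and 2 months (1.62). Against harvest the same held for GBSSIa in control fruit at day 21 (-0.86), in 1-MCP fruit (-1.34) and control fruit (-3.08) at 2 months, and for AMY10 in control fruit at 2 months (-1.28). For GBSSIb it held within Granny Smith (1.08), over 2 cultivars (1.34), at day 14 (1.66), at day 21 (1.42), for 1-MCP fruit at 2 months against harvest (1.77) and for F in control fruit (7.87). With a single prior variance (18 lost) the same calls were lost, with F at 6.76, apart from GBSSIa at 2 months against harvest, which was kept in both kinds of fruit, and GBSSIa at day 14 (0.48) was lost as well. With 4 added, AMY10 (0.55) and GBSSIb (1.37) at day 21 were lost, and with centred differences AMY10 at day 21 (0.54). The AMY10 difference of Golden Delicious minus Fuji was lost with no filter, a stricter filter and a single prior variance (-0.42 each), without day 7 (-0.35), day 14 (-0.49) and day 21 (-0.42). GBSSIb within Granny Smith was lost without day 14 (0.87) and day 21 (0.95). Signs turned, none of them called, for AMY10 in Golden Delicious minus Granny Smith without day 7 (-0.15) and for GBSSIa in Golden Delicious minus Fuji without day 21 (-0.12) and in Granny Smith minus Fuji without day 7 (0.0635).

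Leaving out 1 cultivar at a time gave these ranges. GBSSIa differed between 1-MCP and control by 0.47 to 0.55 over days 7, 14 and 21, by 0.33 to 0.40 at day 1, 0.45 to 0.69 at day 7, 0.46 to 0.49 at day 14 and 1.47 to 2.07 at 2 months. AMY10 differed by 0.44 to 0.66 over days 7, 14 and 21, by 0.45 to 0.91 at day 7, 0.46 to 0.60 at day 14, 0.42 to 0.63 at day 21 and 1.28 to 1.92 at 2 months. Against harvest, GBSSIa in control fruit ranged from -0.92 to -0.79 at day 21 and from -3.47 to -2.86 at 2 months, and AMY10 from -1.53 to -0.98 in control fruit at 2 months, from 0.11 to 0.60 in 1-MCP fruit at 2 months and from -0.17 to 0.01 in 1-MCP fruit at day 21, the last being without Golden Delicious (0.0065). F of AMY10 ran from 0.83 to 6.50 in 1-MCP fruit and from 5.04 to 10.83 in control fruit.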
